A study of Homo sapiens with 6 samples.

Results

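Methyl groups on CpG sites are written, copied and taken off by a small set of proteins, and 10 of their genes were measured here in bladder cancer cells given the transcription factor FOXA1. They are the methyltransferases DNMT1, DNMT3A and DNMT3B, the catalytically inactive cofactor DNMT3L, the reader UHRF1, the dioxygenases TET1, TET2 and TET3, and the glycosylases TDG and MBD4. A gene was read through each probeset, a group of short oligonucleotides on the array, whose annotation gives a single symbol that is 1 of the 10. This rule selected 21 of 54613 probesets tested. DNMT1, DNMT3B, DNMT3L and UHRF1 had 1 probeset each, TET1 and TDG had 2, DNMT3A, TET2 and TET3 had 3, and MBD4 had 4. RefSeq (build GRCh38.p14) places all 10 as protein coding genes, with DNMT1 at chr19:10133346-10194953, UHRF1 at chr19:4903080-4962154, DNMT3A at chr2:25227874-25342590, DNMT3B at chr20:32762385-32809356, DNMT3L at chr21:44246339-44261897, TET1 at chr10:68560337-68694487, TET2 at chr4:105145875-105279803, TET3 at chr2:73983631-74135498, TDG at chr12:103965872-103988874 and MBD4 at chr3:129430947-129439948.

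RNA of EJ/T24 cells, an established human line of invasive bladder cancer, was hybridised to HG-U133 Plus 2.0 arrays, 6 in all, 3 of FOXA1 transfected cells and 3 of cells given an empty vector (control). Per the labels each dish of 90 mm at 70% confluence received 24 μg of DNA with Lipofectamine 2000, so the control cells also carried plasmid DNA and lipid, and pUC19 was the empty vector. The methods instead describe a pcDNA3 vector with FOXA1, an empty vector and Lipofectamine LTX. The methods speak of triplicate experiments and of transfection by the dish, but do not tie each array to a dish of its own, so a p measures the spread between these samples alone and that spread may be partly technical.

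The values are signals of the Affymetrix MAS5 software on a linear scale, and a log2 difference is the mean log2 signal of the FOXA1 transfected arrays minus that of the control arrays. Groups were compared with limma over all probesets, with Benjamini-Hochberg adjustment and a threshold of 0.05. FOXA1 itself had signals of 38.9, 34.8 and 31.9 in FOXA1 transfected arrays and 21.8, 24.4 and 21 in control arrays at its brighter probeset. The groups did not overlap, and an exact permutation test, two-sided, gave p = 0.1, below which 3 against 3 cannot go, but the log2 difference of 0.65 (SE 0.23) did not pass limma (adjusted p = 0.307). At the dimmer probeset it was -0.54 (SE 0.64). FOXA1 protein was checked separately in the paper, by western blot on part of the transfected cells, and is not measured by these signals. The direction of every log2 difference follows the sample labels. It opposes the study's own list of changed genes at the 2 genes compared, DKK1 and a probeset of MAP2K5. Both are higher here in the arrays labelled FOXA1 and lower in that list. Here the ratios of geometric means were 1.81 at DKK1 and 35.0 at that MAP2K5 probeset. The rest of the list was not compared, and which way each difference runs rests on the labels. Whether the groups are exchanged in either source was not tested. If they were in the labels, every direction given here would reverse. KRT18 (signals from 2080.4 to 2544) and VIM (from 3494 to 4460.3) were bright in all 6 arrays, while the keratin KRT19 and the urothelial uroplakin UPK3A lay under 3.5, the 20th percentile of all signals, in every array. Intermediate signals were seen at the keratins KRT7 (18.4 to 33.8) and KRT8 (22.2 to 34.5). The urothelial markers UPK1B (9.6 to 30.4), GATA3 (6.1 to 23.5) and PPARG (27.9 to 41.3) were also intermediate. The epithelial EPCAM (1.9 to 8) and CDH1 (0.6 to 5.3) lay under 3.5 in 1 and 5 arrays. UPK1A (1.8 to 16.6) and UPK2 (0.8 to 12.1) did so in 2 and 5. The mesenchymal marker FN1 ran from 5.9 to 26.3, far dimmer than VIM. Of the 2 ratios of 3' to 5' signal that reflect RNA quality, that of ACTB was 2.10, 2.52 and 2.47 in the FOXA1 transfected arrays but 1.73, 1.92 and 1.54 in the control arrays, and its part in the results below was not tested. That of GAPDH was 0.922, 0.941 and 0.898 against 0.905, 0.888 and 0.903, with overlap.

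CpG methylation is copied after each round of replication, when UHRF1 binds the hemimethylated sites of the new DNA and brings DNMT1 to them. DNMT3A and DNMT3B add methyl groups at sites without them, and DNMT3L helps them without being an enzyme. The TET proteins oxidise 5-methylcytosine step by step, TDG removes the more oxidised bases, and base excision repair then puts back an unmethylated cytosine. MBD4 removes thymine left by deamination of 5-methylcytosine. FOXA1 opens chromatin at enhancers that lose methylation when it binds, and the comparison asks whether transcripts of the methylation machinery differed after FOXA1 transfection.

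The promoters of DNMT1 and TDG are shown because these were the 2 genes of the 10 whose FOXA1 transfected arrays all lay above the control arrays. The 250 bases before the RefSeq start are printed 5' to 3' on the strand of the gene (build GRCh38.p14), with each CpG in capitals. The DNMT1 stretch is chr19:10194954-10195203 on the minus strand and the TDG stretch chr12:103965622-103965871 on the plus strand.
DNMT1: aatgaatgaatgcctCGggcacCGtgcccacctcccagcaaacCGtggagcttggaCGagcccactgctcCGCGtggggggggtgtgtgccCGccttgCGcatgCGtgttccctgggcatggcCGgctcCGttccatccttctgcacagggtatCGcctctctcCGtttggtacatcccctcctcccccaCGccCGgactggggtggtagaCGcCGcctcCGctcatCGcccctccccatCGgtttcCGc
TDG: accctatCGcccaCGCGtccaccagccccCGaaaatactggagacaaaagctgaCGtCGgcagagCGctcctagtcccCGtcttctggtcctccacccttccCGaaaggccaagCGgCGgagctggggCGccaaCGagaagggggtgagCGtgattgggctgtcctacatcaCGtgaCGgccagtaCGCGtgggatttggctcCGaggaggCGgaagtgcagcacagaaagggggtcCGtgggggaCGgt
DNMT1 holds 21 CpG sites in these 250 bases and TDG 22, and the median over 35116 RefSeq windows was 11. RefSeq windows were found for 9 of the 10 genes, 20 windows in all, of which 15 held more than that median. The forkhead core TGTTTAC was searched on both strands over each whole window, the 250 bases before and 50 after a start. It was in 1 of the 20 windows, at TET2, and in 3.42% of all windows. The related letters TGTTTGC were in 1 of the 20, at DNMT3B, and in 3.89% of all. Neither was in the DNMT1 or TDG windows. The letters TTTCGCGC, a form of the site of the cell cycle factor E2F and not overlapping with the forkhead letters, were in 2 of the 20 windows, at DNMT1 and UHRF1, and in 0.515% of all windows. The 4 stretches of 30 bases that hold these matches follow, with the match in capitals, since these are the letters that a reader would look for first.
TET2, forkhead core, chr4:105145863-105145892, plus strand: cgtggctaaaGTAAACAgaaggtgggccgg
DNMT3B, second forkhead form, chr20:32779853-32779882, plus strand: aagggagagaGCAAACAaaggggtcaggag
DNMT1, E2F letters, chr19:10194936-10194965, minus strand: atcggtttccGCGCGAAAagccggggcgcc
UHRF1, E2F letters, chr19:4909974-4910003, plus strand: ccgagcccgaTTTCGCGCgccctgagttcc
At TET2, DNMT3B and DNMT1 the capitals are the reverse complement of the letters searched. They span the start itself at TET2 and DNMT1, and at UHRF1 they end 153 bases before the start of that transcript. At DNMT3B they lie just after the start used for its only window. That start is inside the gene, and the 5' end of DNMT3B was not searched. A match of letters is not a binding site, and no binding or methylation was measured in these files.

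Not 1 of the 21 probesets passed the threshold, which 32 of 54613 did (0.0586%, of which 0.0385% higher and 0.0201% lower in FOXA1 transfected arrays). Their adjusted p ran from 0.239 to 0.981, and 3 of the 21 had an unadjusted p under 0.05 from limma (14.3%, against 11.3% of all probesets). Log2 differences were above 0 at 15 probesets and below 0 at 6, and 58.2% of all probesets lay above 0. The median was 0.09, the same to 2 decimals as for the brightest probeset of each of the 10 genes, and 0.08 over all probesets. After each array was centred on its own median, that of the 21 was -0.10 with 6 above 0 and 15 below, and that of all probesets also -0.10, so the split follows the scaling. In 3 of the 21 (14.3%) the 2 groups of arrays stood apart without overlap, against 16.4% of all probesets (10.5% with all FOXA1 transfected arrays above and 5.86% with all below), a share near that of the array as a whole. All 3 lay above the control arrays, 1 at DNMT1 and 2 at TDG. This split also moved with the scaling. After median centring 2 did not overlap (9.52%, against 13.5% of all probesets), the dimmer TDG probeset above and the brightest MBD4 probeset below the control arrays. After quantile normalization there were 4 (19.0%, against 16.3%), the same 3 above and the dimmest MBD4 probeset below. At the brightest probeset, 8 of the 10 genes lay above 0 and 2 below, against 59.2% above 0 over 19775 genes, and 2 of the 10 had no overlap, against 19.7%. Non-overlap was more common among bright probesets, 21.7% of those above the median signal.

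**Figure D1:**
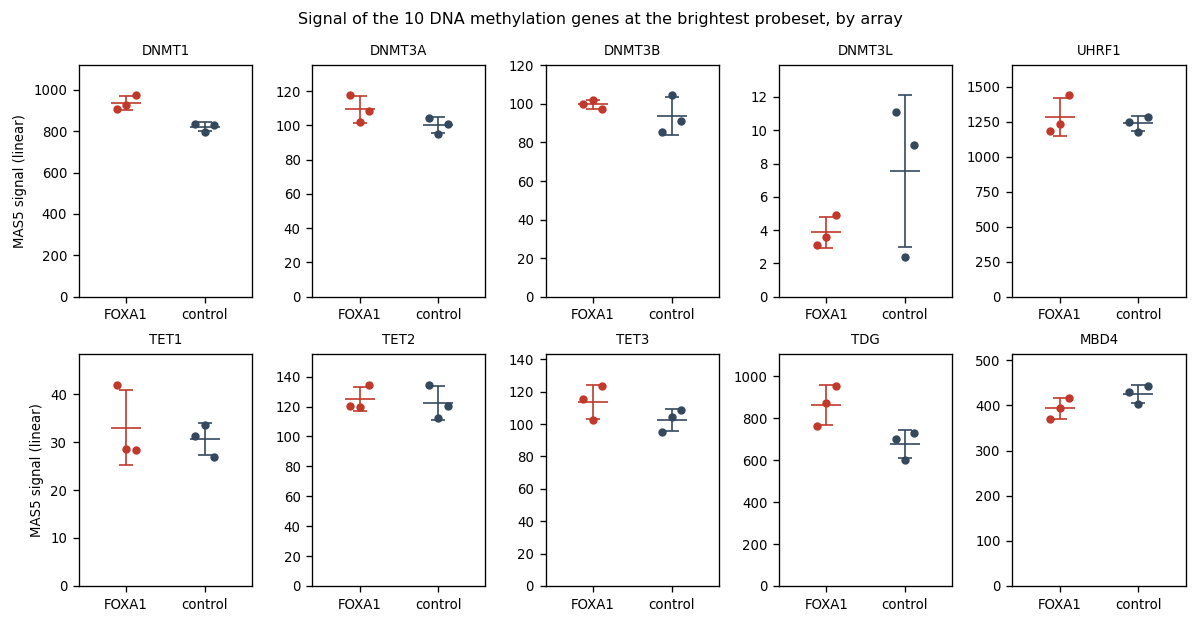
MAS5 signal (linear axis from 0) of the 10 genes at the brightest probeset of each, in 3 FOXA1 transfected and 3 control arrays, where a point is 1 array, the horizontal line the mean and the error bar the SD. DNMT1 and TDG are the 2 genes without overlap of the groups, and DNMT3L has 2 arrays under 3.5.

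DNMT1, the maintenance methyltransferase, had signals of 907, 927 and 973 in FOXA1 transfected arrays and 837, 797 and 829 in control arrays. Every FOXA1 transfected array lay above every control array, by a ratio of geometric means of 1.14. The log2 difference was 0.19 (SE 0.07, 95% interval 0.03 to 0.35) and did not pass limma (adjusted p = 0.356). Its direction held in all 14 other ways of processing, but its size did not. It was 0.0060 after median centring (adjusted p = 0.995 from limma), where the groups overlapped. After quantile normalization it was 0.22 (adjusted p = 0.259 from limma), and the groups stayed apart. Without any 1 array it ran from 0.16 to 0.21. UHRF1, which recruits DNMT1 to replicated DNA, had signals of 1184, 1238 and 1439.7 in FOXA1 transfected and 1251, 1181 and 1284.5 in control arrays. FOXA1 transfected array 3 was the highest of the 6, and the other FOXA1 transfected arrays lay within the control range. The log2 difference was 0.05 (SE 0.09, 95% interval -0.14 to 0.24, adjusted p = 0.872 from limma). It was -0.03 without FOXA1 transfected array 3, -0.13 after median centring and 0.07 after quantile normalization, so no difference in UHRF1 was detectable, within that interval.

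The genes whose log2 signals followed DNMT1 most closely over the 6 arrays, out of 22612 probesets of other genes above the median signal, were HNRNPK (Pearson r = 0.996), MYD88 (0.995) and LMF2 (0.995). Those most like UHRF1 were FAM13B (0.992), TMEM192 (0.990) and STK31 (0.989). These are descriptions over 6 arrays that share 2 groups and their scaling, with no test. For DNMT1 and UHRF1 themselves r was 0.580.

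DNMT3A and DNMT3B, the enzymes of new methylation, showed no detectable difference. At the brightest DNMT3A probeset the signals were 117.5, 102 and 108.5 in FOXA1 transfected and 104, 95 and 101 in control arrays, which overlapped, with a log2 difference of 0.13 (SE 0.12, 95% interval -0.13 to 0.38, adjusted p = 0.740 from limma). The other 2 probesets gave -0.17 and 0.12, so the 3 readings of DNMT3A did not share a sign, while after median centring all 3 lay below 0 (-0.057, -0.35 and -0.066). DNMT3B had 100, 102 and 97.2 in FOXA1 transfected and 85.4, 104 and 91.3 in control arrays. Control array 2 was the highest of the 6. The log2 difference was 0.09 (SE 0.12, 95% interval -0.18 to 0.37, adjusted p = 0.823 from limma). DNMT3L, which is known from germ cells and early embryos, was dim throughout, with 3.1, 3.6 and 4.9 in FOXA1 transfected and 11.1, 2.4 and 9.1 in control arrays. With 2 of its 6 values under 3.5, its log2 difference of -0.72 (SE 0.75, 95% interval -2.35 to 0.92, adjusted p = 0.768 from limma) covers a wide range.

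Of the dioxygenases, none differed beyond the spread of the arrays. TET1 had signals of 42.0, 28.6 and 28.3 in FOXA1 transfected and 31.3, 33.6 and 27.0 in control arrays at its brighter probeset (log2 difference 0.09, SE 0.24, 95% interval -0.44 to 0.61, limma adjusted p = 0.928). FOXA1 transfected array 1 was the highest of the 6, and the difference was -0.10 without it. The dimmer TET1 probeset, of the _x_at kind that can also bind near-identical transcripts, gave -0.08. TET2 had 120.4, 119.9 and 134 in FOXA1 transfected and 135, 112 and 120.3 in control arrays. The control arrays spanned all 3 FOXA1 transfected arrays, with a log2 difference of 0.03 (SE 0.12, 95% interval -0.23 to 0.29, adjusted p = 0.951 from limma). Its other probesets gave -0.43 (SE 0.36) and 0.70 (SE 0.77), the last at signals from 1.4 to 8.6. TET3 had 115, 103 and 123.5 in FOXA1 transfected and 95.3, 104 and 109 in control arrays, a difference in log2 of 0.15 (SE 0.12, 95% interval -0.12 to 0.42, adjusted p = 0.701 from limma). All 3 TET3 probesets lay above 0, the others by 0.38 (SE 0.31) and 1.07 (SE 0.80). The largest of these came from a probeset with 5 of its 6 signals under 3.5, where the order of signals was not relied on. The TET3 difference at the brightest probeset was -0.04 after median centring and 0.13 after quantile normalization.

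TDG, the glycosylase that follows the TET enzymes, had the smallest p of the 10 genes. At its brighter probeset the signals were 765, 873 and 956 in FOXA1 transfected arrays and 700.1, 602 and 729.5 in control arrays. At the dimmer they were 82.7, 70.2 and 78.9 against 52.6, 29.2 and 57.7. At both, each FOXA1 transfected array lay above each control array. The log2 differences were 0.35 (SE 0.10, 95% interval 0.12 to 0.58, adjusted p = 0.239 from limma) and 0.79 (SE 0.24, 95% interval 0.27 to 1.31, adjusted p = 0.247 from limma), ratios of 1.28 and 1.73. Neither passed the threshold over all probesets, and by exact permutation, two-sided, p was 0.1 at both, its lowest possible value here. The 2 probesets read the same RNA samples and are not independent measurements, and RefSeq lists a TDG pseudogene, TDGP1, whose share in these signals was not tested. In 14 other ways of processing, the brighter probeset gave 0.17 to 0.44 and the dimmer 0.48 to 0.98, with none past the threshold (adjusted p from 0.120 to 0.781 and from 0.125 to 0.618, limma). Median centring gave 0.17 and 0.61, and the groups then overlapped at the brighter probeset only. Without control array 2, the lowest of the 6 at both, the values were 0.27 and 0.48. MBD4, the glycosylase of deaminated methylcytosine, had 371, 394 and 417 in FOXA1 transfected and 429, 403 and 444 in control arrays at its brightest probeset, with overlap (log2 difference -0.11, SE 0.09, 95% interval -0.30 to 0.08, adjusted p = 0.672 from limma). Its other 3 probesets gave 0.01, 0.07 and -0.26, and the 4 readings did not share a sign. After median centring all 4 lay below 0 (-0.29, -0.17, -0.11 and -0.45), and at the brightest every FOXA1 transfected array then lay below every control array (limma adjusted p = 0.593).

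**Figure D2:**
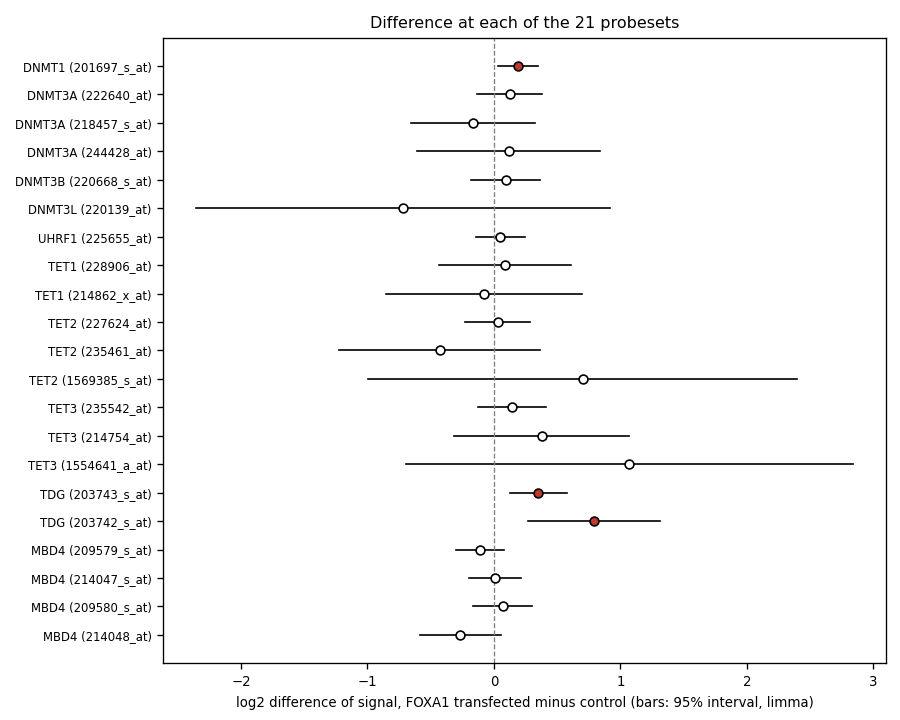
Log2 difference of MAS5 signal (FOXA1 transfected minus control) at the 21 probesets, with 95% intervals from limma over 3 arrays in each group, and filled points where the groups did not overlap. The intervals of DNMT1 and both TDG probesets lie above 0 before adjustment over all probesets, and the widest belong to dim probesets of TET3, TET2 and DNMT3L.

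**Figure D3:**
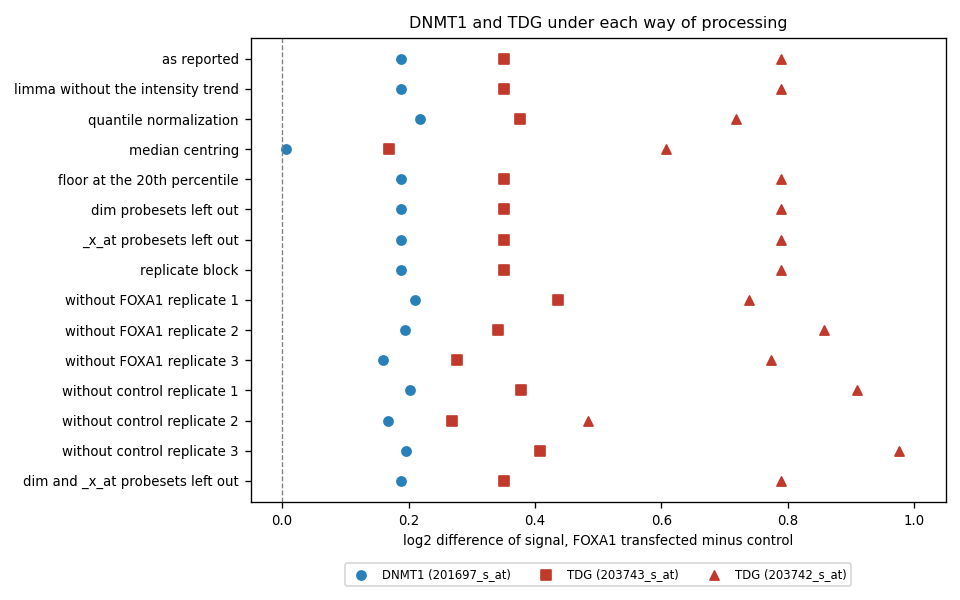
Log2 difference (FOXA1 transfected minus control) at the DNMT1 probeset (circles) and the 2 TDG probesets (squares and triangles), as reported and under 14 other ways of processing. All points lie above 0, DNMT1 comes down to 0.0060 after median centring, and the dimmer TDG probeset is lowest, at 0.48, without control array 2.

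Genes that work with these enzymes were read at their brightest probeset in 8 lists, of 126 genes in all, 117 of them measured. No gene of these lists passed limma over all probesets. An unadjusted p under 0.05 from limma was found for 16 of the 117 (13.7%, against 14.6% of 19775 genes), and 19 had no overlap (16.2%, against 19.7%). Of 15 partners and recruiters of the methyltransferases, 10 lay above 0 and 5 below (median 0.03, and -0.15 after median centring), and in 4 the groups did not overlap. TRIM28, a corepressor that brings DNA and histone methylation to silenced repeats, had 252, 303 and 261 in FOXA1 transfected and 197, 194.5 and 211 in control arrays, which differed by 0.43 in log2 (SE 0.10, limma adjusted p = 0.156). NSD1, a histone H3 lysine methyltransferase whose mark guides DNMT3A, differed by 0.90 (SE 0.26), EHMT2, which methylates histone H3 in silent chromatin, by 0.71 (SE 0.25) and PCNA, the replication clamp that DNMT1 binds, by 0.20 (SE 0.09). All 4 had each FOXA1 transfected array above each control array. After median centring PCNA differed by 0.018, against 0.25 for TRIM28, 0.72 for NSD1 and 0.53 for EHMT2. The list named readers of methylated CpG had 8 genes measured, 6 above 0 and 2 below (median 0.07). After median centring the median was -0.11, with 3 above and 5 below. The list takes in relatives, such as MBD3 and MBD6, that do not selectively bind methylated CpG. MBD3, a subunit of the NuRD complex, had 241.5, 272 and 291 in FOXA1 transfected and 208, 217.5 and 199 in control arrays (log2 difference 0.36, SE 0.10, limma adjusted p = 0.210). MBD6 differed by 0.33, MBD1 by 0.22 and ZBTB33 by -0.13.

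On the side of removal, of 10 TET partners and enzymes that supply or use 2-oxoglutarate, the cosubstrate of the TET enzymes, 4 lay above 0 and 6 below (median -0.12, and -0.30 after median centring, with all 10 below 0). OGT, the glycosyltransferase that binds TET2 and TET3, had 1142, 942 and 989.6 in FOXA1 transfected and 1269, 1268 and 1322 in control arrays. No FOXA1 transfected array reached the lowest control array, and the log2 difference was -0.33 (SE 0.09, limma adjusted p = 0.187). IDH2 and IDH3G, isocitrate dehydrogenases of the mitochondrion, differed by -0.35 (SE 0.13) and -0.27 (SE 0.10), also without overlap, and OGDH by -0.31 (SE 0.26). Of 14 genes of base excision and deamination, 4 lay above 0 and 10 below (median -0.05, and -0.23 after median centring, with all 14 below 0). GADD45A, a stress protein proposed to aid demethylation, had 877, 894 and 1009 in FOXA1 transfected and 1328, 1132 and 1205 in control arrays. The groups did not overlap, and differed by -0.40 in log2 (SE 0.09, limma adjusted p = 0.140). LIG3, APOBEC1 and NEIL3 overlapped, with differences of -0.24, -0.94 and -0.16. That of APOBEC1 (SE 0.62) was read at signals from 2.8 to 16. Of 15 genes of the methyl donor cycle, which makes S-adenosylmethionine, 8 lay above 0 and 7 below (median 0.12, and -0.06 after median centring), and the smallest adjusted p of the list was 0.443 (limma). BHMT, which remakes methionine from betaine, differed by 1.54 at signals from 1.5 to 15, and CBS, which draws homocysteine away, by 0.22, both without overlap, which for CBS was 0.04 after median centring. The methionine synthase MTR differed by -0.18 and the folate enzyme MTHFD1 by 0.24, with overlap.

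Germline genes that promoter methylation keeps silent in body cells are often read as a sign of lost methylation. Among 23 measured, 17 had differences above 0 and 6 below (median 0.33). After quantile normalization 13 lay above and 10 below (median 0.14), after median centring 14 and 9 (0.15), and with signals under 3.5 set to 3.5, 13 and 10 (0.11). Control array 2 weighed most, since without it 13 lay above and 10 below (median 0.04), and without FOXA1 transfected array 2 or 3 the median was 0.54 or 0.16. The 4 genes with bright probesets split 2 and 2 (median 0.08). In 15 of the 23 at least 1 array lay under 3.5, and the summed signal of the list was 244 to 297 in FOXA1 transfected and 219 to 289.9 in control arrays, with overlap. MAGEA12 had 14.8, 16 and 16 in FOXA1 transfected and 3.1, 1.3 and 6.0 in control arrays, which differed by 2.43 in log2 (SE 0.66, limma adjusted p = 0.205), at an _x_at probeset with 2 control signals under 3.5. HORMAD1, a meiotic chromosome axis protein, ran the other way at higher signals, with 66.0, 66.1 and 63.0 against 97.5, 95.6 and 90.2 (log2 difference -0.54, SE 0.13, limma adjusted p = 0.159). TDRD1 and PRAME differed by 1.94 and 1.27, with overlap. Their signals ran from 0.4 to 8.6 and from 1.3 to 7.8, with 2 and 4 of the 6 arrays under 3.5. Markers of blood, vessel, muscle, liver and nerve cells, 12 of 14 measured, had 8 above 0 and 4 below (median 0.30), 6 and 6 after median centring (0.12), and 6 and 6 without control array 2 (0.06). Their summed signal was 121 to 151 in FOXA1 transfected and 95.3 to 127 in control arrays, the monocyte marker CD14 lay under 3.5 in every array, and their part in the germline values was not tested. PECAM1, CD3E, DES and GFAP had the smallest p of that list, with differences of 0.47, 0.93, -1.57 and 1.12 at their brightest probesets. Other probesets of PECAM1 (-1.57 to 0.62), DES (2.003) and GFAP (-0.56 and 2.20) lay on both sides of 0 or opposite.

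DNMT1 and UHRF1 are transcribed with the genes of S phase, so 20 genes of DNA replication were read beside them. They had 15 above 0 and 5 below (median 0.11), a split that became 4 and 16 (median -0.07) after median centring and stayed at 15 and 5 after quantile normalization. The groups did not overlap in 4 of the 20, near the 19.7% of all genes. MCM5, a subunit of the replicative helicase, had 471, 487 and 492 in FOXA1 transfected and 416, 342 and 377 in control arrays (log2 difference 0.36, SE 0.09, limma adjusted p = 0.181). MCM3, of the same helicase, differed by 0.24 (SE 0.07) and the transcription factor E2F1 by 0.55 (SE 0.18), while GINS1, a helicase cofactor, differed by -0.18 (SE 0.07). After median centring MCM5 differed by 0.18, MCM3 by 0.06, E2F1 by 0.37 and GINS1 by -0.36. The dimmer E2F1 probeset ran the other way, at -0.93 (SE 0.50) before centring, with overlap.

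**Figure D4:**
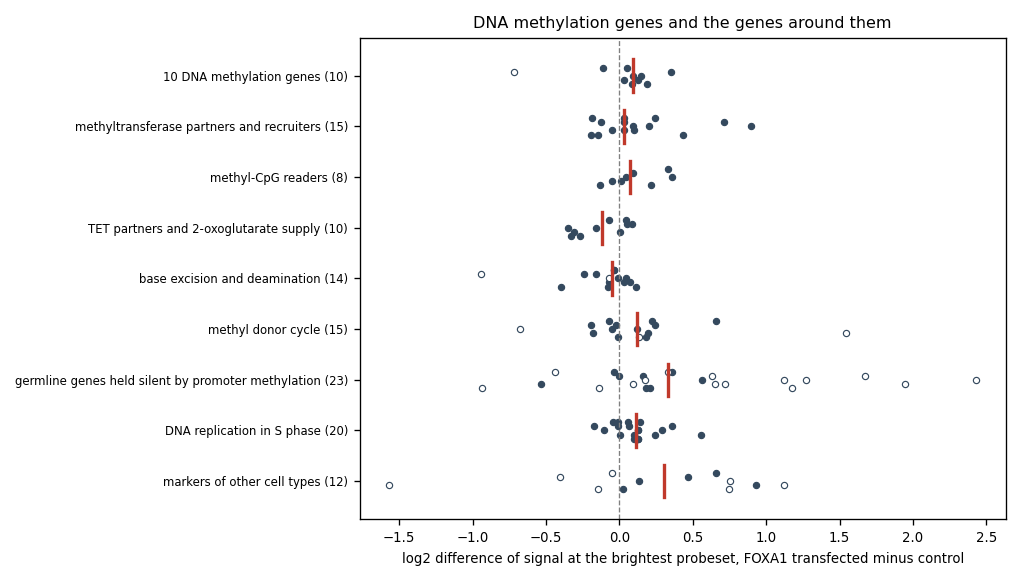
Log2 difference (FOXA1 transfected minus control) at the brightest probeset of each gene, for the 10 DNA methylation genes and 8 lists of genes around them (number measured in brackets), with red lines for medians and open points for genes with any array under 3.5. The list medians lie between -0.12 and 0.33, and the widest scatter is in germline genes and markers of other cell types, where many points are open.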

How the data were processed

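The authors deposited MAS5 signals, an intensity on a linear scale, for 54675 probesets of 6 HG-U133 Plus 2.0 arrays. The methods name MAS5 and then RMA log2 values with SAM, and the deposited values do not include the RMA step. SAM was not run, since it rests on permuted splits of the arrays. Here 62 array control probesets were left out, 25 signals listed at 0 were set to 0.1, and limma (3.58.1, R 4.3.3) was fitted to log2 signals with an intensity trend, two-sided, over 54613 probesets. Symbols came from the platform annotation (41091 probesets with 1 symbol, 1801 with several, 11721 with none). The brightest probeset of a gene has the highest mean log2 signal over all 6 arrays. The members and lists were chosen with earlier results of these data known, and their counts are descriptions. The genes named were all members, FOXA1, the 4 of each list with the smallest p, and the 3 genes most like DNMT1 and UHRF1 over the arrays. KRT7, KRT8, KRT18, KRT19, EPCAM, CDH1, VIM, FN1, UPK1A, UPK1B, UPK2, UPK3A, GATA3, PPARG, CD14, DKK1 and MAP2K5 were named after their values were seen. Alternatives were limma without the trend, quantile normalization, median centring, a floor at 3.5, leaving out dim or _x_at probesets, the median over the probesets of a gene, a block for the replicate number, and fits that left out 1 array at a time. Leaving out dim and _x_at probesets together was added after seeing the data. The fit was tested on simulated data. Promoter sequences are from RefSeq. The number of arrays limits the precision, and no detection calls were used. CpG methylation arrays were not analysed here.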

Additional observations from a re-analysis of the deposited data

How the results depend on the processing

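In none of the 14 other settings did a probeset of the 10 genes pass limma, and no gene of the lists did. At an unadjusted p under 0.05 from limma 3 probesets of the 10 genes were counted as reported, 1 without the intensity trend, and 2 after median centring or without control array 2. The number past the threshold over all probesets was 32 as reported, 1 without the intensity trend, 7 after median centring, 179 without dim probesets, 153 without dim and _x_at probesets (chosen after seeing the data), and 85 with the replicate number as a block. Without 1 array it was 4 to 76, with 10, 6 and 76 without FOXA1 transfected array 1, 2 or 3 and 10, 5 and 4 without control array 1, 2 or 3. The cause was not tested. The replicate numbers were not taken to pair the arrays, since deviations of same-numbered arrays correlated by 0.0022, 0.038 and 0.011, and 1 of 3 FOXA1 transfected arrays correlated best with its own number. The median log2 difference of the 21 probesets was 0.09 as reported, -0.10 after median centring, and 0.0036 to 0.12 without 1 array. Median centring moved the median of all probesets from 0.08 to -0.10 and turned the sign of DNMT3A (-0.057), DNMT3B (-0.088), UHRF1 (-0.13), TET1 (-0.10), TET2 (-0.15) and TET3 (-0.036) at their brightest probesets. With 1 array left out the sign turned in 3 genes: UHRF1 ran from -0.032 to 0.11 (below 0 without FOXA1 transfected array 3), TET1 from -0.10 to 0.18 (below 0 without FOXA1 transfected array 1, and -0.0016 without control array 3), and TET2 from -0.030 to 0.10 (below 0 without control array 2, and -0.024 without FOXA1 transfected array 3). With the median of the log2 signals of a gene's probesets taken in each array, which mostly reads its probeset of middle signal, DNMT3A was -0.17, TET2 -0.43 and MBD4 0.040, with signs other than at the brightest probeset, and TET3 was 0.38 and TDG 0.57. List medians also moved without 1 array, from 0.0070 (without control array 3) to 0.13 (without control array 1) for methyltransferase partners, 0.03 (without FOXA1 transfected array 2) to 0.14 (without control array 2) for readers, -0.19 (without control array 1) to -0.05 (without control array 2) for TET partners, -0.10 (without FOXA1 transfected array 2) to -0.0082 (without FOXA1 transfected array 1) for base excision, -0.0019 (without control array 1) to 0.18 (without control array 3) for the methyl donor cycle, and 0.06 (without control array 2) to 0.17 (without control array 3) for replication. Signals under 3.5, the 20th percentile, were not relied on for their order, and no detection calls were used. This limits what can be read at DNMT3L and at the dimmest TET2 and TET3 probesets.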

Other observations

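Other probesets of the genes around the methylation machinery gave further readings of the same RNA. OGT was read by 6 probesets, of which 5 lay below 0 and 1 above, the last at signals from 1.5 to 12.2. Their log2 differences ran from -0.38 to 0.52, and in 2 the groups did not overlap. Over the whole array 16.4% of probesets had no overlap, and 21.7% of those above the median signal. All 3 MBD3 probesets lay above 0 (0.30 to 0.39), as did all 5 of MBD1 (0.14 to 0.59), all 4 of NSD1 (0.30 to 0.90) and both of MCM5 (0.36 and 0.50, without overlap at either). All 3 of EHMT2 also lay above 0, but 2 of them by 0.08 and 0.46 with overlap. E2F1, IDH3G, LIG3, MBD6, MTR, MTHFD1 and OGDH had probesets on both sides of 0. After median centring the brightest probeset gave -0.52 for OGT, 0.18 for MBD3, 0.03 for MBD1, 0.72 for NSD1, 0.18 for MCM5 and 0.25 for TRIM28. All probesets of MBD3, NSD1 and MCM5 then stayed above 0, but 4 of the 5 of MBD1 and 2 of the 3 of EHMT2 did. No probeset named here passed limma over the whole array.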
